A study of Mus musculus with 278 samples.

Results

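The cells described here were the basal cells of the adult mouse mammary gland, sorted from FVB/NJ animals at the adult stage and captured on the Fluidigm C1 system, in which each cell becomes a library of its own. Basal cells were sorted as lineage-negative cells with high CD29 (the integrin Itgb1) and CD24. All cells titled as adult basal cells were taken when they held at least 50000 reads and 1000 genes after mitochondrial genes, ribosomal genes and gene IDs without a symbol were removed, and a cell with reads in 3 or more of 5 leukocyte genes (Ptprc, Cd52, Tyrobp, Laptm5 and Coro1a) was left out. Of 112 titled cells, 27 were under a minimum, 1 was left out for leukocyte genes and 84 were kept, out of 278 cells in the whole series. Beside them, 39 adult luminal cells of the same strain with at least 100000 reads and 1500 genes served only to show how often a gene was read in the other lineage. No culture or treatment was given to any group. The labels name no animal for any cell, so the 84 cells count as 1 sample and no value below carries a test. The intervals given cover counting error over cells only, and reads amplified by PCR without molecular identifiers are not independent molecules.

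Basal cells form the outer layer of the mammary duct. Most are myoepithelial, that is, epithelial cells that carry the keratins of stratified epithelia together with the actin and myosin of smooth muscle, and they contract on oxytocin to eject milk. They also lay down the basement membrane, and the basal layer has been reported to hold cells with stem cell activity, for which many marker genes have been put forward. Both functions make it of interest how far single basal cells differ in their contractile, keratin, matrix, signalling and stem cell genes.

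Libraries differed in depth. Reads in kept genes ran from 67170 to 1290740 per cell with a median of 373518, and the deepest cell outside the minimums held 46811. To compare cells, 50000 reads were drawn from each, so that 1 read equals 20 CPM (reads scaled to a common library total), and all levels and detection counts are at that equal depth unless said otherwise. Cells still differed in the number of genes read, from 912 to 4144 with a median of 2273. This number followed the original depth of the cell, with a Spearman's rho of 0.72 over the 84 cells. In the luminal cells its median was 3427, so counts of detection set beside luminal cells are not at an equal number of genes. Mitochondrial genes took 1.37% to 30.4% of reads, with a median of 6.32%. No pair of cells had identical values.

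The 5 basal identity markers were read in nearly all cells, with the exception of Trp63. Acta2, smooth muscle actin (chr19:34240336-34255585, GRCm38), was read in 84 of 84 cells, from 260 to 37680 CPM with a median of 9400. Krt14, a keratin of the basal layer (chr11:100203162-100207510), was read in 82 cells, or 97.6% (95% exact interval 91.7 to 99.7), with a median of 3100 and a highest level of 17900 CPM. Myh11, the smooth muscle myosin heavy chain (chr16:14194527-14292188), was also read in 82 cells, with a median of 2870 and a highest level of 9500 CPM. Krt5, the keratin partner of Krt14 (chr15:101707069-101712905), was read in 76 cells, or 90.5% (82.1 to 95.8), with a median of 300 and a highest level of 3400 CPM. Trp63, the transcription factor p63 that defines the basal layer (chr16:25683763-25892088), was read in 42 cells, or 50% (38.9 to 61.1), and its median of 10 CPM was below the value of 1 read. Among the 39 luminal cells, reads were found in 1 cell for Acta2, 7 for Krt14, 3 for Myh11, 1 for Krt5 and 1 for Trp63. Thus 39 basal cells held all 5 markers, 38 held 4, 5 held 3 and 2 (cells 49 and 95) held 2.

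**Figure D1:**
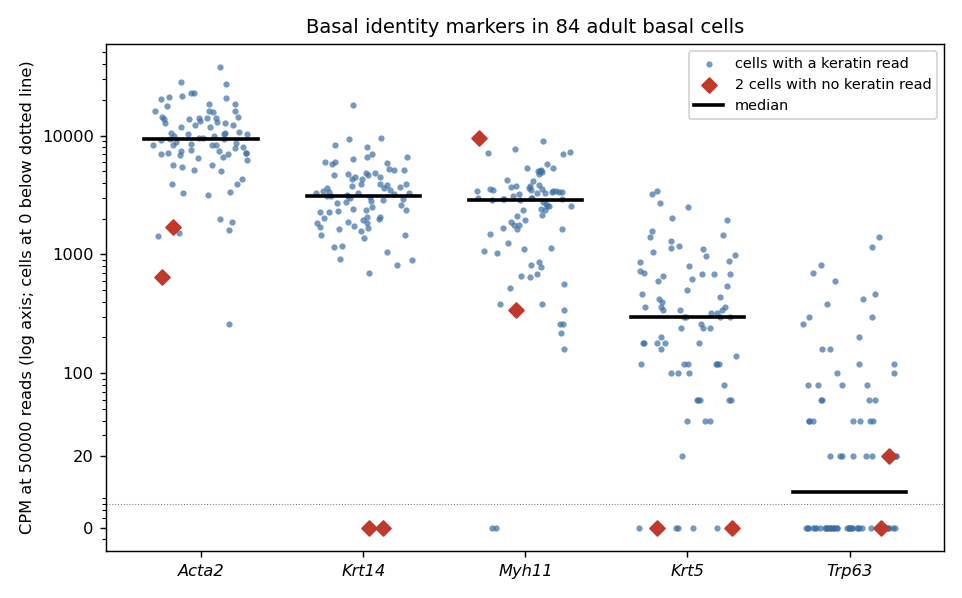
Level of the 5 identity markers in each of 84 adult basal cells, in CPM at 50000 reads on a log axis, with cells at 0 drawn below the dotted line and the median as a black line. Acta2 was read in every cell and Trp63 in 42, and the red diamonds mark the 2 cells with no read of Krt14, Krt5 or Krt17.

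Among the cells, 2 stood apart from the basal label. Cells 7 and 49 had no read of Krt14, Krt5 or Krt17 at equal depth, and none of Epcam, Sfn or Perp, which encode epithelial adhesion and keratinocyte proteins. Before thinning, cell 7 held 1 read of Krt14 and cell 49 held 0, while Krt14 was at 700 CPM or above in each of the other 82 cells. Cell 49 held 9500 CPM of Myh11, the highest of all 84 cells, and 1140 CPM of Des, the muscle intermediate filament desmin, which was read in none of the other 82. It also held 7560 CPM of Sparcl1, read in 4 of the 82, and 4240 CPM of Cd93, read in none of them. Cell 7 held 340 CPM of Myh11 and 640 CPM of Acta2, together with 3820 CPM of Lama2, a laminin chain, and 2600 CPM of Abca8b, a transporter. Neither Lama2 nor Abca8b was read in the other 82 cells. Notch3, a receptor typical of mural cells, was at 1240 CPM in cell 7 and 300 CPM in cell 49, and in 1 of the 82 at 20 CPM. In cell 7, some genes read in most of the other 82 cells were near or above their median in those cells. Scn7a was at 1700 CPM (median 1670), Runx1 at 3440 (2530) and Cxcl14 at 100 (110). Others were low in cell 7, such as Postn at 20 CPM (3670) and Lcn2 at 40 (1390). In cell 49, Scn7a and Cxcl14 were at 0 and Runx1 was at 840 CPM. These genes were chosen after their values were seen. Of the fixed pericyte markers, Rgs5, Kcnj8 and Abcc9 were at 0 in all 84 cells, and Cspg4 was at 60 CPM in cell 49. Of the 5 fixed endothelial markers, 1 was read in cell 49, at 300 CPM, the highest endothelial sum of all cells. The 2 cells are therefore given no cell type name here. Both had mitochondrial shares above 14%, and the results below changed little without them: the median number of genes was then 2289.5 and the contractile spread 3.23-fold.

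Cell 95 differed in another way. It kept 3320 CPM of Krt14 but had 260 CPM of Acta2, 0 of Myh11 and a summed contractile level of 2200 CPM, the lowest of all cells. The next lowest contractile level was 6820 CPM, in cell 96. Of the bulk luminal list it held 1 gene, and of the 22 luminal markers 2, Epcam at 1480 CPM and Krt8 at 320 CPM. Their sum of 1800 CPM lay between the median (990 CPM) and the 90th percentile (2340 CPM) of all cells. Cell 28, in contrast, combined the highest Krt14 level with 28200 CPM of Acta2 and no read of Krt5.

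The contractile apparatus took a larger part of the reads than the keratin or the matrix list. The summed level of its 25 genes ran from 2200 to 95020 CPM with a median of 36520 CPM, and the 90th percentile cell stood 3.31-fold above the 10th percentile cell. In luminal cells the median sum was 1000 CPM. Of the 25 genes, 12 were read in at least 90% of basal cells and 17 in at least 50%. By level per kb of transcript, the leading members were Acta2, Tagln, Tpm2 and Myl9. Tagln, the actin-bundling protein transgelin, was read in 84 cells from 480 to 19280 CPM with a median of 5400. Tpm2, a tropomyosin, was read in 82 cells with a median of 2650 and a highest level of 11200 CPM, and Myl9, a regulatory light chain of myosin, in 81 cells with a median of 1140 and a highest of 5540 CPM. Actg2, the enteric smooth muscle actin, was read in 40 cells with a highest level of 5080 CPM. Des and Myocd, which encode desmin and the co-activator of smooth muscle genes, were read in 1 cell each.

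The actin-associated genes varied together from cell to cell. The level of Acta2 had a Spearman's rho over the 84 cells of 0.60 with Tagln, 0.54 with Myl9, 0.50 with Cnn1 (calponin), 0.48 with Tpm2 and 0.39 with Myh11. For comparison, over all 800745 pairs among 1266 genes read in at least 50% of cells, the median rho was 0.060 and the 99th percentile 0.33. Over the 136 pairs among 17 contractile genes, the median was 0.17 and 93.4% of the pairs were positive. Myh11 sided with other genes: its closest were Postn (periostin, rho 0.46), Mylk (myosin light chain kinase, 0.45), Plpp3 (0.41), Acta2 (0.39) and Col4a6 (0.39). Genes nearest to Acta2 by the same measure were Tagln, the pseudogene Gm5526, Myl9, Myl6 and Cnn1. Cells share a library preparation and a fixed total of reads, so a rise of abundant genes lowers the share of all others. Holding the number of genes read constant left the rho of Acta2 with Tagln at 0.60, and without cells 7 and 49 it was 0.57.

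**Figure D2:**
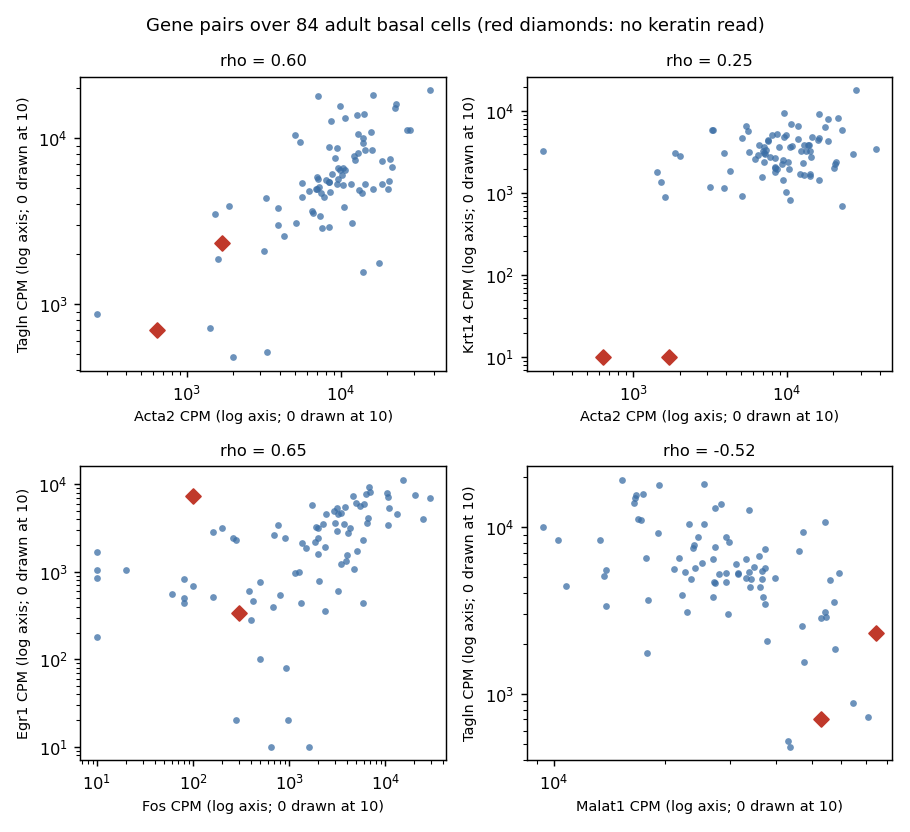
Level of gene pairs in each of 84 adult basal cells, in CPM on log axes with 0 drawn at 10, where each point is 1 cell and red diamonds are cells 7 and 49. Acta2 and Tagln (rho 0.60) and Fos and Egr1 (0.65) varied together, Acta2 and Krt14 did so less (0.25), and Malat1 and Tagln were opposed (-0.52).

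The contractile genes are known targets of serum response factor, which binds the CArG box, a motif of 10 bases with CC and GG around 6 bases of A or T. The same factor acts on immediate early genes. The 250 bases before each listed transcription start were searched in the RefSeq promoter table (GRCm38.p6), first with no mismatch and then, after that search had shown no match in Acta2, allowing up to 1 base other than A or T among the central 6. The motif reads the same way on both strands. With the mismatch allowed, a match was found in 5 of the 20 contractile genes listed in that table (25%), in 4 of 17 immediate early genes (23.5%), in 1 of 8 keratin and adhesion genes (12.5%) and in 2643 of all 27025 genes (9.78%). With no mismatch, the counts were 3 of 20, 1 of 17, 0 of 8 and 439 of 27025 (1.62%). Srf, which encodes serum response factor itself, belongs to the contractile list and is counted in both the 5 and the 3. The promoters of 4 genes whose levels are described here are printed because they carry such a match, and they were chosen after the matches were seen. Capitals mark the motif. They lie at chr19:34255374-34255623 on the minus strand for Acta2, chr2:156775214-156775463 on the plus strand for Myl9, chr14:20929148-20929397 on the plus strand for Vcl (vinculin) and chr7:28379229-28379478 on the minus strand for Zfp36 (an RNA-binding immediate early protein).
Acta2: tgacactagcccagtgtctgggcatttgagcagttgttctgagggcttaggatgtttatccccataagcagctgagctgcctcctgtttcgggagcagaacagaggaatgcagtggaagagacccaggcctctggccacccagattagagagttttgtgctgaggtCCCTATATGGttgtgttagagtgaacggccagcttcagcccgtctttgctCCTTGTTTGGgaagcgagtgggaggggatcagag
Myl9: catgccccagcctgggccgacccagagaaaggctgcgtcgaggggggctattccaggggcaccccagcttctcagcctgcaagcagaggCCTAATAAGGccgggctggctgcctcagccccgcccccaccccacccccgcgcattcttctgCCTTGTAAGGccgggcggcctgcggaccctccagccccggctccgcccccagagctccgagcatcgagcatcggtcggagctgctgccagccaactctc
Vcl: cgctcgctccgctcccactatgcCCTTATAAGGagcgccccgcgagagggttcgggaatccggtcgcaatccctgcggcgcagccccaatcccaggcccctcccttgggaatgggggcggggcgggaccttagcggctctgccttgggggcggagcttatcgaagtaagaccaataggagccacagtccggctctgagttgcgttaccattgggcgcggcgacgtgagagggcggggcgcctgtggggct
Zfp36: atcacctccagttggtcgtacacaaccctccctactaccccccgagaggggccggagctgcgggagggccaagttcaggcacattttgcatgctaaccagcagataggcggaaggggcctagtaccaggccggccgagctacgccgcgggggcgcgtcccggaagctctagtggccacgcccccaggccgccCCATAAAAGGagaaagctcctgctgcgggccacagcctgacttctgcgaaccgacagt
The first bases of the motifs were 84 and 34 bases before the start in Acta2, 161 and 99 in Myl9, 227 in Vcl and 58 in Zfp36. These distances are from the start that the promoter table lists, which lies inside the annotated span of 3 of the genes: 212 of the 250 bases printed for Acta2, with both motifs, 56 for Myl9 and 15 for Vcl fall within the span, which begins further upstream, and 0 do for Zfp36. Both motifs of Acta2 carried the mismatch. Acta2 and Myl9 were among the pairs that varied together, whereas Vcl was read in 78 cells with a median of 480 CPM and also in 37 of 39 luminal cells. A match of letters does not show binding in these cells.

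Over the 55 pairs among 11 keratin and adhesion genes read in at least 50% of cells, the median rho was 0.10 and 76.4% of the pairs were positive; the difference from the contractile genes was not tested. The summed level of the 19 genes of this list ran from 640 CPM in cell 7 to 28820 CPM, with a median of 12850 and a 2.93-fold distance between the 10th and 90th percentiles. Krt14 and Krt5, which form a filament together as proteins, had a rho of 0.0075 between their transcripts, while Krt5 had 0.35 with Krt17 and 0.38 with Perp, a desmosome-linked membrane protein. Krt17, a keratin of basal and regenerating epithelium, was read in 80 cells with a median of 2500 and a highest level of 10180 CPM. Itga6, the integrin chain of hemidesmosomes, was read in 80 cells with a median of 940, and Perp in 70 with a median of 360 CPM. The desmosomal cadherins Dsc3 and Dsg3 were at 0 in all 84 cells, which allows a share of up to 3.57% of cells with a read. Krt15 was patchy. It was read in 24 cells, was at or below 380 CPM in 90% of cells and reached 5200 CPM in 1 cell, which held 28.2% of its reads. Krt14 had a rho of 0.25 with Acta2, just under the 95th percentile of all gene pairs (0.253), and of -0.046 with Myh11. Without cells 7 and 49 the first was 0.20. The 5 genes closest to Krt14 reached a rho of 0.32 to 0.35: Bex3, Eef1a1, Selenom and the pseudogenes Gm9512 and Oaz1-ps. Those closest to Krt5 were Sik1, Gata3, Perp, Tgfb1i1 and Prss23 (0.35 to 0.41), and those closest to Trp63 were Sde2, Plxdc2, Niban1, Ube2r2 and Hnrnpa0 (0.39 to 0.43).

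Of 25 matrix genes, 2 were read in at least 90% of cells, 12 in at least 50% and 3 in under 10%. The summed level of these basement membrane, matrix and integrin genes ran from 1660 CPM in cell 95 to 47460 CPM with a median of 11670, a 3.84-fold distance between the 10th and 90th percentiles. Postn, a secreted adhesion protein of the matrix, was read in 81 cells and ran from 0 to 38560 CPM with a median of 3550. Sparc, a collagen-binding protein, was read in 83 cells with a median of 1240 and a highest level of 6160 CPM. Thbs1 (thrombospondin) was read in 67 cells with a median of 850, and Itgb1, the antigen of the sort, in 70 with a median of 620 CPM. The type IV collagen chains Col4a1 and Col4a2 were read in 71 and 66 cells. Fn1 (fibronectin) was read in 2 cells and Nid1 (nidogen) in 5. Contractile and matrix sums were related with a rho of 0.44, the highest of 136 pairs of lists. It was 0.17 without Postn and Fos, an alternative added after the data were seen, and 0.21 in the 40 cells with title numbers up to 56 and 0.55 in the other 44. Oxtr, the oxytocin receptor through which milk ejection is triggered, was read in 67 cells with a median of 610 and a highest level of 5280 CPM. Its rho was 0.40 with Postn, 0.15 with Acta2 and 0.084 with Myh11. Scn7a, an atypical sodium channel, was read in 77 cells with a median of 1660 and a highest level of 14740 CPM, and Gja1 (connexin 43) in 70 cells with a median of 470 CPM. Atp2a2, the calcium pump of the sarcoplasmic reticulum, was read in 64 cells with a median of 220 CPM.

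Transcription factors and signalling genes ranged from broadly to rarely read. At least 50% of cells had a read for 5 of 15 transcription factors, 2 of 17 Wnt genes, 2 of 10 Notch genes and 6 of 16 growth factor genes. Of the 15 basal transcription factors, Nfib was read in 79 cells with a median of 1240 CPM, though it was also read in 38 of 39 luminal cells. Egr2 was read in 47 cells, Tead1 in 55 and Snai2 (Slug) in 33, and Snai2, Irx4, Id4 and Lmo1 were read in 0 of 39 luminal cells, which allows a share of up to 7.69%. Summed over the list the level ran from 0 to 11620 CPM, and the 10th and 90th percentiles were 8.17-fold apart, or 4.80-fold without the cells with under 1500 genes. Per cell, 0 to 11 of the 15 were read, with a median of 6. Wif1, a secreted Wnt inhibitor, was read in 43 cells with a median of 20 and a highest level of 7340 CPM, in cell 28, which held 25.5% of its reads. Dkk3 was read in 44 cells and in no luminal cell, with a highest level of 2400 CPM, and the receptor Fzd7 in 30. The target genes Axin2 and Lef1 were read in 5 and 1 cells, and Notum and Apcdd1 in 0. Of the Notch pathway, the ligand Jag1 was read in 63 cells with a median of 330 and the receptor Notch2 in 35. The ligand Dll1 was read in 40 cells and no luminal cell, and cell 33 held 46.2% of its reads. The target gene Hes1 was read in 42 cells, while the targets Hey1, Hey2 and Heyl were at 0 in all 84. Of growth factor genes, Igfbp5, an IGF-binding protein, was read in 82 cells from 0 to 25020 CPM with a median of 2340, and the secreted protein Cxcl14 in 80 with a median of 100. Nrg1 (neuregulin) was read in 45 and Pdgfa in 30.

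Markers reported for mammary stem and progenitor cells differed widely in how often they were read. Sox9 was read in 70 cells with a median of 380 CPM and Foxp1 in 76 with a median of 520, and they were read in 36 and 35 of 39 luminal cells. Lgr5, a receptor of the Wnt-enhancing R-spondins, was read in 28 cells, or 33.3% (23.4 to 44.5), at up to 1400 CPM. Lgr6 was read in 10, Tspan8 and Bcl11b in 6 each, Axin2 in 5, Procr and Itgb3 in 3 each, Cd1d1 in 2 and Zeb2 in 1. Cdh5, Prom1, Zeb1 and Inpp5d were at 0. Of the 6 cells with a read of Tspan8, 1 held 64.7% of its reads, at 3040 CPM. Lgr5 and Lgr6 were read together in 6 cells, where 3.33 would be met if the markers were read independently, and Lgr5 with Tspan8 in 2, where 2 would be met. Lgr6 shared 2 cells with Tspan8 (0.71 by the same product) and 2 with Axin2 (0.60), Tspan8 and Axin2 shared 1 (0.36) and Lgr5 and Bcl11b shared 3 (2). Procr and Lgr5 shared 1 cell, where 1 would be met, and Procr and Bcl11b shared 0 (0.21). These counts are too small to say whether the markers met in the same cells more or less often than by independent reading. At this depth the rarer of these genes lie near the value of 1 read, so a cell without a read may still hold the transcript.

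Immediate early genes spread more widely over cells than the contractile, keratin and matrix lists. Many immediate early genes encode transcription factors, and the group is induced within minutes of stimulation, tissue dissociation included. Their sum ran from 1680 CPM in cell 82 to 49060 CPM in cell 5 with a median of 10690, and the 10th and 90th percentiles were 6.18-fold apart. The heat shock list was 2.44-fold apart and the housekeeping list 2.24-fold. Fos was read in 80 cells with a median of 2000 and a highest level of 28860 CPM, Egr1 in 82 with a median of 2280 and a highest of 11260, Atf3 in 72 with a median of 630 and Btg2 in 77 with a median of 950 CPM. Over the 120 pairs among 16 of these genes, the median rho was 0.20, from -0.33 to 0.65, and 83.3% of the pairs were positive. Among the higher values, rho was 0.65 for Fos and Egr1, 0.53 for Fos and Zfp36, 0.49 for Atf3 and Fosb and 0.49 for Atf3 and Zfp36. Their sum had a rho of 0.036 with the contractile sum, -0.053 with the number of genes read and 0.13 with the mitochondrial share. Luminal cells, sorted from the same tissue, had a median of 10240 CPM. Klf6, another member, was lower in basal cells (median 480 CPM) than in luminal cells (2160 CPM), and Egr1 was higher (2280 against 680 CPM); neither difference was tested. Among heat shock genes, Hsp90ab1, Hspa8 and Dnaja1 were read in all 84 cells, and Hsp90ab1 ran from 140 to 16820 CPM with a median of 3860 CPM. Hsp90aa1 was read in 83 cells with a median of 940 CPM and the chaperonin Hspe1 in 67 with a median of 160 CPM. The contractile and heat shock sums had a rho of -0.23.

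**Figure D3:**
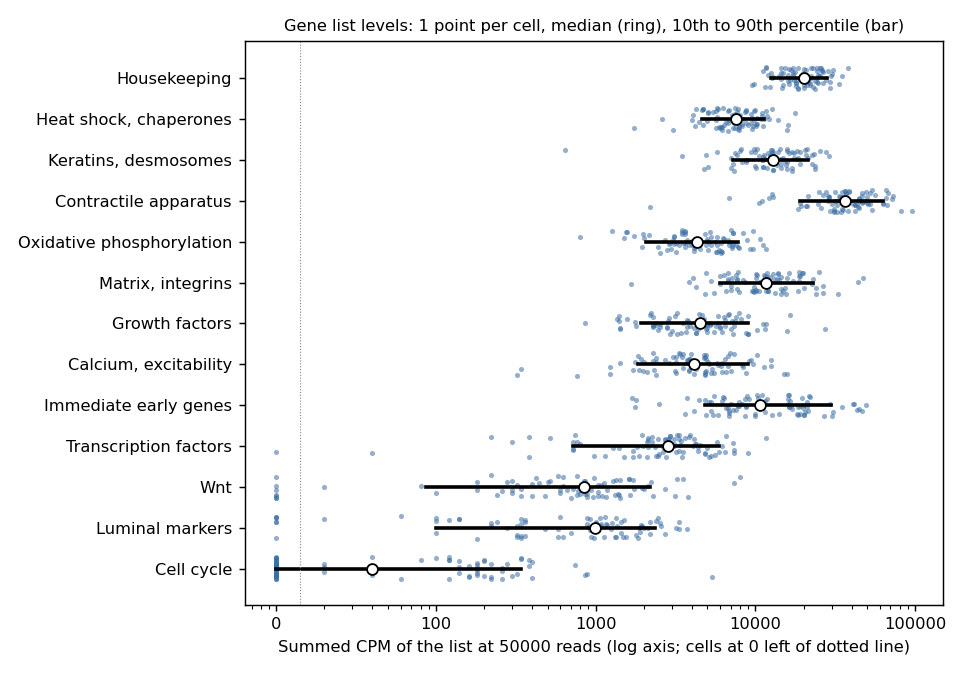
Summed level of 13 gene lists in each of 84 adult basal cells, in CPM at 50000 reads on a log axis, with the median as a ring and the 10th to 90th percentiles as a bar. Immediate early genes spread 6.18-fold between those percentiles against 3.31-fold for the contractile apparatus and 2.24-fold for housekeeping genes.

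Of 12 chemokine, cytokine and acute response genes, 2 were read in at least 90% of cells and 7 in under 10%. Lcn2 (lipocalin 2, an antibacterial iron carrier) was read in 79 cells with a median of 1370 and a highest level of 8160 CPM, and the adhesion receptor Icam1 in 78 with a median of 500 CPM. Ccl2, a chemokine for monocytes, was read in 14 cells and reached 12180 CPM in 1 of them, with 51.7% of all its reads. Il6 was read in 4 cells, and cell 90 held 8140 CPM and 94% of its reads. Cxcl1, a chemokine for neutrophils, was read in 29 cells with a highest level of 5820 CPM. Cell 90 also had the lowest number of genes read (912) and a mitochondrial share of 30.4%.

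Luminal genes were read in basal cells in a restricted form. At least 3 of 22 luminal markers were read in 45 cells, or 53.6% (42.4 to 64.5), and in all 39 luminal cells, but in basal cells these were mostly 4 genes. Epcam, an adhesion molecule of both lineages, was read in 72 cells with a median of 330 CPM, Krt8 in 57 with a median of 80, Krt18 in 38 and Krt19 in 15. In luminal cells the medians of Krt8, Krt18 and Krt19 were 1060, 3120 and 1400 CPM. Krt8 and Atf3 had a rho of 0.45 over basal cells. The other markers were rare. The luminal progenitor factors Elf5 and Ehf were read in 1 cell each, Elf5 at 1200 CPM. The progesterone receptor Pgr was read in 8, with 76.4% of its reads in 1 cell at 3240 CPM. Esr1, the oestrogen receptor, was read in 3, with 560 CPM in cell 88. Prlr, the prolactin receptor, was read in 3 cells against 38 of 39 luminal cells. Kit, Foxa1, Cited1, Cd55 and Aldh1a3 were at 0. No basal cell held more than 5 of the 22 markers, whereas luminal cells held a median of 15. Of the 199 matched genes of the bulk luminal list, basal cells held 0 to 10, with a median of 4, and luminal cells a median of 70.

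At least 1 of 10 cell cycle genes was read in 48 cells, mostly Pcna. Reads in 3 or more of them were found in 2 cells, or 2.38% (0.29 to 8.34), against 8 of 39 luminal cells. Cell 36 held 7 of them, with 2200 CPM of Top2a, 1240 of Mki67, 880 of Ube2c and 600 of Cdk1, which act in chromosome segregation and mitosis. It kept its basal identity, with 2920 CPM of Krt14, 6500 of Acta2 and 640 of Myh11. Cell 109 held 3, at 340 CPM of Pcna, 280 of Top2a and 120 of Cdk1. Without thinning, 8 cells passed. Pcna was read in 45 cells at up to 400 CPM and so does not separate them. The summed level of the list had a rho of 0.46 with the number of genes read, whose median was higher in luminal cells (3427 against 2273). The difference in counts from luminal cells was not tested.

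Markers of other cell types were read in a minority of cells. Endothelial markers were read in 2 cells, pericyte markers in 5 and erythroid markers in 1, at summed levels of at most 300 (cell 49), 120 and 80 CPM. Of the leukocyte genes, Ptprc was read in cell 91 at 2040 CPM and the other 4 were at 0. Fibroblast markers were read in 15 cells, mostly Dcn (decorin, 11 cells), of whose reads cell 51 held 51%, at 2960 CPM; the other fibroblast markers were at 220 CPM or below. Sox10, a factor of Schwann cells that mammary basal cells also express, was read in 25 at up to 2440 CPM (cell 69), while Cdh19 was at 0. The share of these genes in the results above was not tested.

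The bulk basal list of 200 genes, which the study drew from separate bulk libraries, was mostly read in a minority of cells. Only 17 genes were read in at least 90% of cells, 25 in 50% to 90%, 102 in 10% to 50% and 50 in under 10%, and 6 were at 0. A median gene was read in 20.8% of basal and 2.56% of luminal cells. A median cell held 62 of the 200, with 23 in cell 49 and 102 at most. The summed level ran from 18000 CPM in cell 7 to 125740 CPM with a median of 65690 and a 2.41-fold distance between the 10th and 90th percentiles. Abundant members weigh most in this sum, with means of 10547 CPM for Acta2, 6562 for Tagln and 5848 for Postn.

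**Figure D4:**
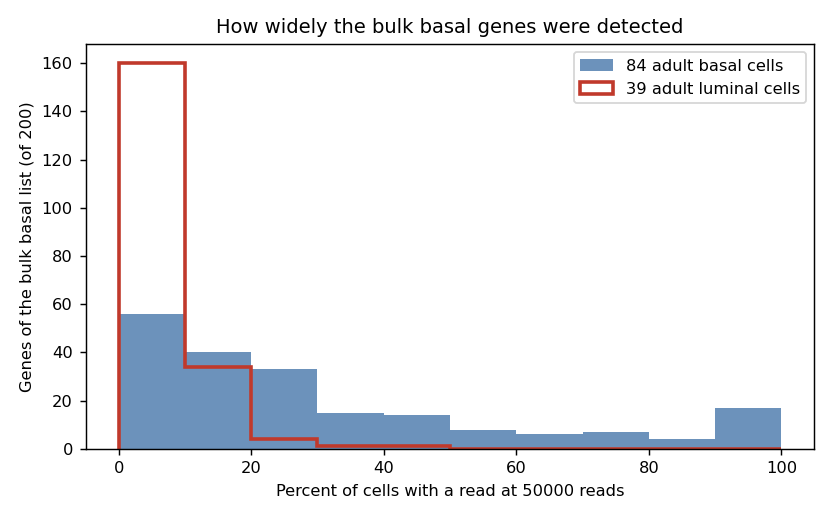
Number of genes of the 200 in the bulk basal list (y axis) by the percent of cells with a read at 50000 reads (x axis), for 84 adult basal cells (filled) and 39 adult luminal cells (outline). In basal cells 17 genes reached 90% or more, and the median gene was read in 20.8% of basal and 2.56% of luminal cells.

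Across all genes, 5778 had a mean of at least 1 read per cell and reads in at least 5 cells. Of these, 342 (5.92%) had a squared coefficient of variation at least 2 times the running median of genes of like level, with no cell holding 50% of the reads, and were called variable. A further 478 genes passed the ratio but had 1 cell with over 50% of their reads. The 342 became 70 at 3 times the running median and 58 when no cell could hold 25% of the reads. Of the 342, 290 were read in under 50% of cells, so that most calls were of patchy genes. The identity markers gave 0 of 5, with a median ratio to the running median of 0.46, where all assessed genes have 1 by construction. The contractile list gave 2 of 23 (Nexn and Synpo2, both actin-binding) with a median ratio of 0.72, the keratin list 1 of 17 (Krt15, 0.75), the matrix list 2 of 23 (Fbn1 and Lamc1, 0.80), the transcription factors 0 of 13 (0.70), the Wnt list 1 of 9 (Wif1, 1.1), the Notch list 1 of 4 (Dll1, 0.82), the growth factor list 1 of 14 (Angptl2, 1.08), the chemokine list 1 of 6 (Cxcl1, 1.4), the immediate early genes 0 of 21 (0.87) and the heat shock genes 0 of 12 (0.40). The bulk basal list gave 8 of 140 (0.94). These counts are small and close to the background of 5.92%. Without cells 7 and 49, 337 genes were called, of which 297 were called in both.

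Among 1710 genes at or above 100 CPM on average, in 9 or more cells and with no cell above 25% of the reads, the 15 with the highest ratio were Mtrex, Pdk4, Rock2, Dnajc21, Brwd1, Synpo2, Mapre1, Rif1, Tspyl1, Bdnf, Eloa, Foxn3, Appl1, Epas1 and Usp34, with ratios of 2.63 to 3.52. Among these, Pdk4, which restrains pyruvate oxidation, was read in 31 cells at up to 5420 CPM. Rock2, a kinase that promotes actomyosin contraction, was read in 62 cells at up to 9500 CPM, with a median of 260 CPM. Bdnf, a neurotrophin, was read in 41 cells at up to 6660 CPM and in 6 luminal cells. Epas1 (HIF-2 alpha) was read in 54 cells at up to 8400 CPM. The highest level was in cell 49 for Epas1 and in cell 7 for Brwd1 and Eloa. For Rock2 and Usp34 it was in cell 90, which had the fewest genes read. The rest of the 15 were highest in other cells. In each of the 15, between 16.1% and 24.9% of the reads came from a single cell. The 10 genes with the lowest ratio (0.069 to 0.11) were Ubb, Oaz1 and 8 pseudogenes (Gm5526, Gm8680, Gm10335, Gm8894, Gm2225, Gm8942, Gm10080 and Gm14586). Pseudogenes share reads with near-identical genes, so their values are uncertain. So are those of parent genes such as Gapdh, which was read in 6 cells only, while Actb was read in 84 from 3780 to 29840 CPM.

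The largest axis of variation was the number of genes read. In a principal component analysis of 3874 genes read in at least 20% of cells, component 1 held 5.32% of the variance and had a rho of 0.98 with the number of genes read. Its high end was led by Dusp7, Smad7, Cotl1, Slc66a2, Atp2a2, Luzp1, Nfat5, Eif3i, Bclaf1 and Tpm4, and genes at its low end included Aoc3, Gps2, Srebf1, Vasn, Gm6402, Rarg, Csnk2a1, Snora81 and Eef1a1. Component 2 held 2.32% and had a rho of -0.030 with the number of genes read. Components are uncorrelated by construction and component 1 followed that number, so this low value was largely set in advance. At one end stood Acta2, Tagln, Tpm2, Ppia and the short transcripts of mitochondrial complexes Atp5e, Atp5h, Atp5k, Atpif1 and Ndufa11, with the pseudogene Gm10080. At the other end stood Malat1, a long RNA retained in the nucleus, with a rho of -0.72 to the component, and Stat5a, Zbtb21, Arhgap42, Nufip2, Tpp2, Zfp655, Ino80, Qk and Azin1. Malat1 was read in 84 cells from 9360 to 74600 CPM with a median of 29310. Its rho was -0.48 with Acta2 and -0.52 with Tagln, and Runx1, a transcription factor read in 81 cells, had -0.49 with Acta2. The share of ribosomal protein reads, which the analysis did not use, had a rho of 0.53 with component 2, and the mitochondrial share 0.079. Components below these held 1.96% or less. Component 3 had Postn, Myh11, Synm, Vim, Ano1, Zfp36 and Atf3 among its high genes and Hspa8, Ran, Ubb and Eno1 among its low genes. Its rho was 0.53 with the contractile sum and 0.41 with the immediate early sum. Postn and Hspa8 had a rho of -0.44 and Myh11 and Ran -0.45.

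**Figure D5:**
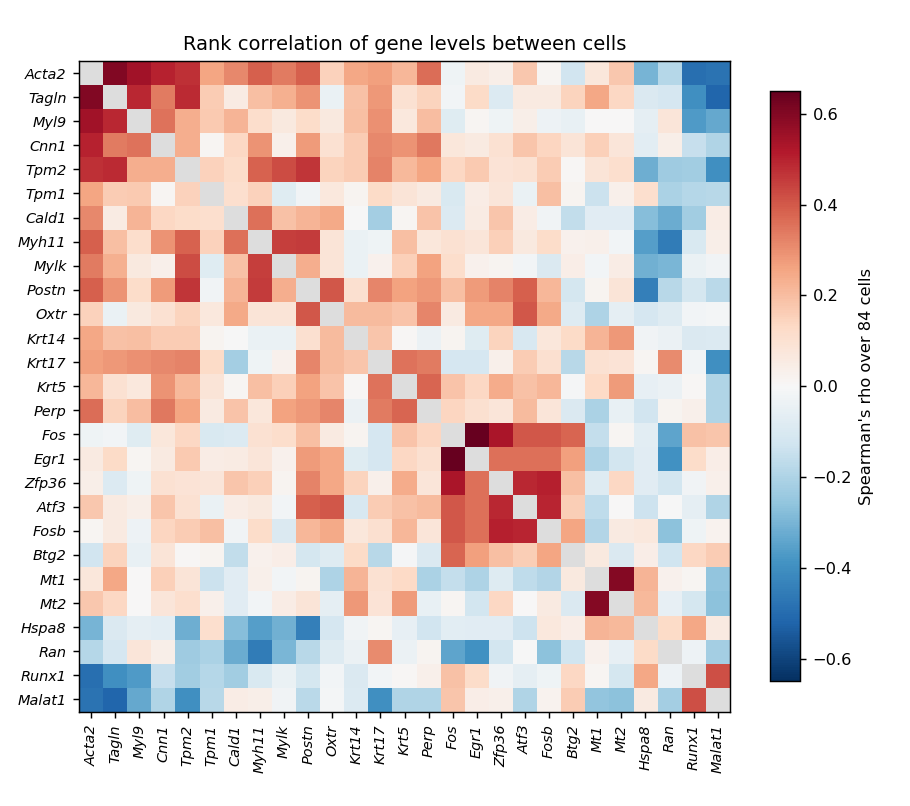
Spearman's rho between the levels of 27 genes over 84 adult basal cells, from blue (negative) to red (positive), with the diagonal in grey. Blocks are seen for contractile genes (Acta2 and Tagln 0.60), immediate early genes (Fos and Egr1 0.65) and metallothioneins (Mt1 and Mt2 0.60), and Malat1 and Runx1 were opposed to Acta2 (-0.48 and -0.49).

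Most pairs of gene lists had a rho near 0, and whether any pair is related was not tested. Over 136 pairs among 17 lists, rho ran from -0.32 to 0.44 with a median of 0.053, and 113 pairs lay within 0.2 of 0. Contractile and keratin sums had 0.26, and immediate early genes and the calcium and excitability list 0.30. Pairwise agreement between whole cells was also low, with a correlation of log2(reads + 1) over the assessed genes of 0.16 to 0.48 and a median of 0.32. Title numbers, the only order in the labels, had a rho between -0.19 and 0.17 with the level of every list, and of -0.28 with reads per cell. A rho can miss a block of numbers. The kept cells numbered 97 to 109 held 67170 to 264889 reads in kept genes, under the median of 373518. This range was picked after the values were seen and was not tested.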

How the data were processed

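Single adult cells were profiled on the Fluidigm C1 with Nextera XT libraries on a NextSeq 500. Per the labels and the study's methods, the authors mapped read pairs to mm10 with Subread (version 1.4.6 in the submitters' processing notes), and deposited raw read counts per gene made with featureCounts and its RefSeq annotation. How reads shared by near-identical genes were counted is not given in the sources used here. The file lists 27179 gene IDs. The 15 mitochondrial and 124 ribosomal protein genes and 1904 IDs without a symbol, which took 7.81%, 1.90% and 1.16% of the reads of adult basal cells, were removed, which left 25136. Kinases named Rps6k were kept. Symbols came from RefSeq (GRCm38.p6).

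Each cell was thinned without replacement to 50000 reads. Library totals ran from 71750 to 1402390 reads. Cells are not replicates, no animal is named and no test was run. Shares carry exact binomial (Clopper-Pearson) intervals at 95%, and 0 cells allow up to 3. Correlations are Spearman's rho over cells, given as descriptions with no p.

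The cells, the gene lists and the thresholds were chosen with earlier results of these data known. Named genes were every identity marker, the 4 members of each list with the highest mean level per kb, the genes most and least variable, those leading components 1 and 2, and the 5 closest to each marker; genes outside these rules were named after their values were seen, and a few genes that the rules name are not reported here. The thinning and the variability call were tested on simulated counts. Python 3.11.15, numpy 2.4.6, scipy 1.17.1 and pandas 2.3.3 were used. A second table that repeats the same counts was not used here.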

Additional observations from a re-analysis of the deposited data

Results flagged for a closer look

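Libraries titled adult basal that did not enter the description also held signal. Of the 27 cells under the minimums, all of which fell short of 50000 reads, 19 had reads in 3 or more of the 5 identity markers. The cell left out, number 19, had reads in 5 of the 5 leukocyte genes and also, before thinning, in 4 identity markers, with 514520 reads in kept genes.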

How the results depend on the processing

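Of 262 values recomputed under 19 alternatives, 247 stayed close to those above (within the exact interval for shares, 1.5 times for counts and folds, 1 SD for genes per cell and a 95% interval for rho) and none changed sign among those with a rho of at least 0.2 in size. Without thinning, Trp63 was read in 63.1% of cells and 8 cells held 3 or more cell cycle genes. With 5 reads required for detection, the share fell to 78.6% for Krt5 and 21.4% for Trp63, 11 bulk basal genes reached 90% of cells and 23 cells held 3 luminal markers. Leaving out cells with under 1500 genes gave 97.1% for Krt5 and a 4.80-fold spread of transcription factors, and the mean of log2 values gave 2.79-fold. Variable genes numbered 70 at 3 times the running median and 58 when no cell held 25% of the reads. The contractile and matrix rho was 0.21 in title numbers up to 56 and 0.17 without Postn and Fos. Krt14 was read in 100% of cells without the 16 cells over 10% mitochondrial reads and without cells 7 and 49. Both leave out cells 7 and 49, the only cells with no read of Krt14 at equal depth, so this value was fixed in advance. The alternatives without Postn and Fos, without cells over 10% mitochondrial reads and without cells 7 and 49 were added after the data were seen. No paired analysis was possible because no result comes from a test. Low transcripts were limited by depth, since 1 read is 20 CPM.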

Other observations

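Innate response genes differed in how many cells they were read in. Ifitm3, an antiviral membrane protein, was read in 83 of 84 basal cells from 0 to 15860 CPM with a median of 3070, against a luminal median of 360 CPM. Its highest level was in cell 91, the only cell with a read of Ptprc, which had a mitochondrial share of 30.4%. Irf1 was read in 63 cells with a median of 220, Irgm1 in 26 and Gbp2 in 20, and 42% of the reads of Gbp2 came from 1 cell. Isg15, Ifit3, Rsad2, Usp18 and Iigp1 were at 0 in all basal cells, while Iigp1 was read in 23 and Usp18 in 12 of 39 luminal cells. Of antigen presentation genes, B2m was read in 79 cells with a median of 1170 CPM, H2-K1 in 78 with 350 and H2-D1 in 75 with 300, and Tapbp in 50. The immunoproteasome subunit Psmb8 was read in 13 basal and 31 luminal cells. The sums of both lists had a rho of 0.31 over basal cells.

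Metabolic genes differed in level between cells. Of oxidative phosphorylation genes, 0 of 14 assessed were called variable, with a median ratio to the running median of 0.60. For glycolysis these values were 0 of 11 and 0.43, and over all assessed genes 5.92% were called. Nuclear genes of oxidative phosphorylation summed to a median of 4330 CPM (3.79-fold between the 10th and 90th percentiles) in basal cells and 6800 CPM in luminal cells. Cox6a1, Ndufa4, Cox4i1 and Cox6c were read in 73 to 81 cells. Glycolytic genes summed to a median of 1690 CPM (6.11-fold), and Aldoa, Ldha, Pkm and Tpi1 were read in 74, 68, 58 and 37 cells. Among housekeeping genes, Eef1a1 ran from 500 to 7760 CPM over 84 cells, Ywhaz was read in 83 and Rack1 in 81. The metallothioneins Mt1 and Mt2 had medians of 10770 and 2270 CPM in basal cells and 3560 and 680 CPM in luminal cells, with a rho of 0.60 between them. The sort antigen Cd24a was read in 49 basal and 36 luminal cells.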
